A study of Mus musculus with 12 samples.

Results

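Transcripts of 10 genes of the histone H3 lysine 9 (H3K9) methylation and heterochromatin protein 1 (HP1) repressor system were followed in mouse embryonic stem cells (ESCs) and their differentiated derivatives. The genes were chosen by name: Trim28, Setdb1 and Zfp57 of the TRIM28 pathway, the histone chaperone Daxx, the methyltransferases Suv39h2, Ehmt1 and Ehmt2, and the HP1 genes Cbx1, Cbx3 and Cbx5. They are 10 of the 23336 genes in the deposited count table, and each of the 10 passed the filter on low counts. The series addressed the state of X-chromosome inactivation in cells with and without Rlim, an X-linked ubiquitin ligase gene. Its 12 RNA-sequencing libraries form 6 groups of 2: female cells labelled RlimKO, WT female cells (the Pgk12.1 line) and WT male cells (the E14 line), each differentiated and undifferentiated. Undifferentiated cells grew in medium with LIF, a cytokine that maintains ESCs. Differentiated cells spent 3 days as embryoid bodies without LIF and then 6 days in culture at 7.5% oxygen. The strain label is C57BL/6 for every sample. Each genotype and sex is a single cell line, so that genotype or sex and line cannot be told apart. Whether the 2 libraries of a group are separate cultures is not in the labels. The p-values below therefore rest on a spread among libraries that could be purely technical.

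Methylation of H3K9 is a mark of silent chromatin. TRIM28 (KAP1) is a corepressor that KRAB zinc finger proteins bring to specific DNA sequences, and it recruits the methyltransferase SETDB1, which represses endogenous retroviruses in ESCs. ZFP57 is the KRAB zinc finger protein that keeps DNA methylation at imprinting control regions. SUV39H2 and its paralog SUV39H1 methylate H3K9 in constitutive heterochromatin, whereas GLP (Ehmt1) and G9a (Ehmt2) act as a pair in euchromatin. HP1 proteins bind methylated H3K9 through their chromodomains and are encoded by Cbx5 (HP1 alpha), Cbx1 (HP1 beta) and Cbx3 (HP1 gamma). DAXX works with ATRX to deposit histone H3.3 in heterochromatin.

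The libraries held 2011919 to 5401940 counts in genes, of which 6.36% to 67.7% fell on the ribosomal RNA gene Rn45s. The 10 genes together had 2384 to 10138 counts per library. Rlim, the targeted gene, had 290.1 and 299 CPM (counts scaled to the effective library size) in the differentiated libraries labelled RlimKO, against 258 and 266 CPM in the differentiated WT female ones. It had 159.96 and 150.04 CPM in the undifferentiated libraries labelled RlimKO, against 267 and 282 CPM in the undifferentiated WT female ones. Rlim was lower in the undifferentiated pair (log2 fold change -0.82 ± 0.15, edgeR adjusted p = 0.044) but not in the differentiated pair (0.17 ± 0.14, adjusted p = 0.65). The allele is not given and counts cover the whole gene, so the RlimKO label was not borne out by Rlim transcript in differentiated cells. The summed CPM of 8 pluripotency markers was 85.1 to 97.8 in differentiated RlimKO-labelled, 205 to 213 in differentiated WT female and 48.9 to 126 in differentiated male libraries, against 1795 to 2056 over the undifferentiated ones. The summed level of 7 fibroblast and feeder markers, such as collagen genes, was 2011 to 10245 CPM over the differentiated libraries and 1.75 to 58.7 CPM over the undifferentiated ones. Dcn was at 0 in undifferentiated libraries labelled RlimKO and Lum in undifferentiated WT female ones. The differentiated male pair had 2011 and 7962 CPM of these markers and the undifferentiated pair labelled RlimKO 1.75 and 48.6 CPM. Summed endoderm markers were 121 to 142 CPM in differentiated RlimKO-labelled, 238 to 239 in WT female and 198 to 310 in male libraries. Mesoderm and cardiac markers were 120 to 123, 78.4 to 84.6 and 202 to 231 CPM in the same order. Neural markers were 42.0 to 45.4, 123 to 135 and 47.2 to 83.3 CPM. In the undifferentiated libraries they were 72.0 to 88.2, 76.7 to 93.4 and 68.3 to 68.6 CPM in that order. On WT female differentiation 1 of the 5 tested neural markers was called higher and 4 lower, so the higher sum does not stand for the list. The part of these markers in differences between lines was not tested. Differentiated male library 2 had the lowest Rn45s share (6.36%, against 22.5% in library 1). Its title also lies outside the run of numbers in the other titles, and whether it was processed apart is not given in the sources used here.

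The 10 genes lie on 7 chromosomes of the mouse genome, none of them the X. Coordinates are those of RefSeq on GRCm38.p6, the mm10 build that the submitters used. Zfp57 (chr17:37001163-37010729), Ehmt2 (chr17:34898463-34914073) and Daxx (chr17:33909404-33915590) share chromosome 17. Ehmt1 (chr2:24790769-24919643) and Suv39h2 (chr2:3455815-3474986) share chromosome 2. The others are Trim28 (chr7:13024152-13031032), Setdb1 (chr3:95323525-95357202), Cbx1 (chr11:96788680-96808982), Cbx3 (chr6:51470154-51483704) and Cbx5 (chr15:103191546-103239904). By the GENCODE annotation, exons of Suv39h2 overlap those of Dclre1c on the opposite strand over 357 bases, and exons of Setdb1 overlap those of Cers2 and Gm37500 over 322 bases. The library type does not mark strand, so reads within these overlaps are uncertain. Cbx3 has processed pseudogene copies, and its counts carry the same doubt.

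The 250 bases before a transcription start are shown for the 4 genes that fell in all 3 lines under every alternative analysis, and for Ehmt1, which had higher mean levels after differentiation. Sequences are from RefSeq, 5′ to 3′ on the strand of the gene, with each CG dinucleotide in capitals.
Zfp57: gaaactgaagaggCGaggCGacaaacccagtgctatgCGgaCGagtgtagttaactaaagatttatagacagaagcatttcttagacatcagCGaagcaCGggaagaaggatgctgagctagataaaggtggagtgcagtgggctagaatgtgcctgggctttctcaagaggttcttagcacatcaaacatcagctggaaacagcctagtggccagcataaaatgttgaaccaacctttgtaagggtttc
Trim28: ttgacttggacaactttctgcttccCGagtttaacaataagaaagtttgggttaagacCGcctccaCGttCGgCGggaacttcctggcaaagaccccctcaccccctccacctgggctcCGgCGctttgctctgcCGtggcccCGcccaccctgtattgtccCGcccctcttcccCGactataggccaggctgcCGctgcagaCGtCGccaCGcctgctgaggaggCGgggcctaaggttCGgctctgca
Cbx1: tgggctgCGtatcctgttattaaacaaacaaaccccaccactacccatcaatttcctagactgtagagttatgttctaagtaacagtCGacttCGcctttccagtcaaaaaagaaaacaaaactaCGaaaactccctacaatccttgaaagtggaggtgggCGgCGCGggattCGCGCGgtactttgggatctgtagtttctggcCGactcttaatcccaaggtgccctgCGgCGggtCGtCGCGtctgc
Suv39h2: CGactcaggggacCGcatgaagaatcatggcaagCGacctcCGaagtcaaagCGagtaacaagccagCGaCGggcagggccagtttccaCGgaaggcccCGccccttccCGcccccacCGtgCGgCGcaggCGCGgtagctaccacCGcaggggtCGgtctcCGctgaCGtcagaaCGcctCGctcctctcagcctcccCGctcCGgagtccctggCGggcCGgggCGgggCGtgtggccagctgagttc
Ehmt1: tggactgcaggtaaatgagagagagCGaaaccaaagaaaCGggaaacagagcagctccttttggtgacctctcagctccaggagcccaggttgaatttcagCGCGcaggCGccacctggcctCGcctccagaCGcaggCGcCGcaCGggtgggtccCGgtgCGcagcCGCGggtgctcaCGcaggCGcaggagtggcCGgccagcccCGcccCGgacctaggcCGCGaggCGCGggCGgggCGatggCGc
The windows are chr17:37000913-37001162 for Zfp57, chr7:13023902-13024151 for Trim28 and chr11:96788885-96789134 for Cbx1, all on the forward strand. Those of Suv39h2 (chr2:3474987-3475236) and Ehmt1 (chr2:24919610-24919859) are on the reverse strand. The Zfp57 window holds 6 CG dinucleotides, the median of all 32851 windows of this length in the promoter table. Trim28 has 17, Cbx1 16, Suv39h2 27 and Ehmt1 26. The other annotated starts of Zfp57 have 7 and 3, so all 3 of its windows are CG-poor beside those of Trim28, Cbx1 and Suv39h2. The GC box GGGCGG, searched on both strands, occurs in 13 of the 17 windows of the 10 genes and in 32.7% of all windows. It contains a CG, and most of the 17 windows hold more CG dinucleotides than the median window. These shares are therefore not from windows of like CG content. The box was not found in the 3 windows of Zfp57 or in 1 of the 2 windows of Cbx3. The windows of Daxx overlap one another, so the 17 windows are not independent.

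Differentiated cells had lower transcript levels of 5 or 6 of these 10 repressors in each of the 3 lines. Trim28, Zfp57, Suv39h2 and Cbx1 fell in each line, by 1.06 to 1.75 on the log2 scale. Setdb1 fell in WT female and male cells, by 0.84 and 0.52, and Daxx in both female lines. Ehmt1 and Ehmt2 had higher mean levels after differentiation, and Cbx3 and Cbx5 passed the test in no line. By edgeR's quasi-likelihood test with Benjamini-Hochberg adjustment over 12814 genes, called below an adjusted p of 0.05, 5 of the 10 fell and 2 rose in RlimKO-labelled cells. In WT female cells 6 fell and in WT male cells 5 fell, with no rise called in either. Over all genes, 48.0% were called in RlimKO-labelled, 48.7% in WT female and 54.0% in male cells, and the share called lower was 21.6%, 22.2% and 25.4% in the same order of lines. The share called higher was 26.4%, 26.5% and 28.7%. The median log2 fold change of the 10 genes was -0.69 in RlimKO-labelled, -0.92 in WT female and -0.47 in male cells, beside 0.10, 0.09 and 0.05 over all genes. In these bulk libraries fewer cells of a type and less RNA per cell cannot be told apart.

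**Figure D1:**
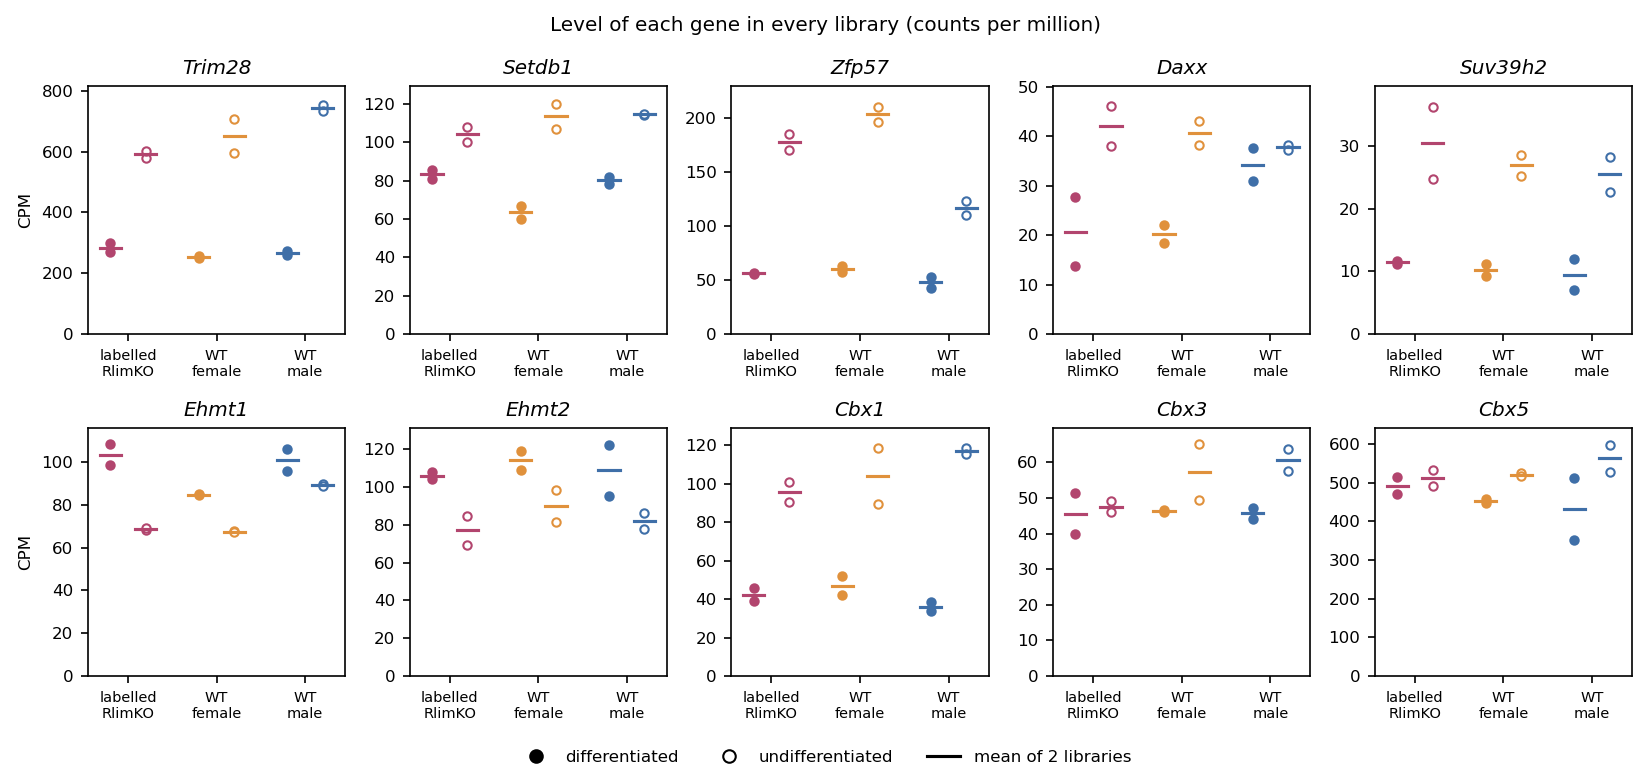
CPM of each of the 10 genes in all 12 libraries, by line, with filled points for differentiated and open points for undifferentiated libraries and a bar at the mean of 2 libraries. For Trim28, Setdb1, Zfp57, Suv39h2 and Cbx1 every differentiated library lies below every undifferentiated one, while Cbx3 and Cbx5 overlap between states. How many of all genes separate in this way was not counted, and 48.0% to 54.0% of them were called on differentiation.

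Trim28, the corepressor at the centre of the pathway, was the most abundant of the 10 per length, with a mean over the 12 libraries of 143 CPM per kilobase of transcript. It had 269 and 298 CPM in differentiated RlimKO-labelled libraries, against 578 and 603 CPM in undifferentiated ones. In WT female cells it had 256 and 248.6 CPM after differentiation, against 594 and 707 CPM before. The male libraries had 259 and 273 CPM differentiated, against 752 and 733 CPM undifferentiated. The differentiated levels lay close together in the 3 lines, and the gap between states was wider than the spread within any group. The log2 fold change was -1.06 ± 0.14 in RlimKO-labelled, -1.37 ± 0.14 in WT female and -1.48 ± 0.14 in male cells (± SE), with edgeR adjusted p of 2.5e-05, 2.1e-06 and 6.8e-07 in that order.

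Zfp57, which protects imprints, had the lowest fold changes of the 10 genes in the female lines. Its level was 56.8 and 55.8 CPM in differentiated RlimKO-labelled libraries, against 169.9 and 185 CPM in undifferentiated ones. WT female cells had 62.5 and 57.8 CPM differentiated, against 210.0 and 196 CPM undifferentiated. Male cells had 53.0 and 42.6 CPM differentiated, against 123 and 110.2 CPM undifferentiated. The 6 differentiated libraries thus sat between 42.6 and 62.5 CPM, below all of the undifferentiated ones. Its log2 fold change was -1.66 ± 0.16 in RlimKO-labelled, -1.75 ± 0.16 in WT female and -1.29 ± 0.15 in male cells, with edgeR adjusted p of 1.2e-06, 5.5e-07 and 7.0e-06. Of the 8 tested genes within 500000 bases of Zfp57, 5 fell in each line and none rose. Over all genes, 21.6% were called lower in RlimKO-labelled, 22.2% in WT female and 25.4% in male cells. Znrd1as, 2410137M14Rik, H2-M5 and Mog fell in all 3 lines, Gabbr1 in the female lines and Znrd1 in the male line. The median log2 fold change of the 8 genes was -1.37 in RlimKO-labelled, -1.62 in WT female and -1.70 in male cells. Around Suv39h2, 4 of 6 tested genes fell in RlimKO-labelled, 3 in WT female and 4 in male cells, and 2 rose in each. Around Cbx3, 1, 2 and 3 of 4 fell in the same lines and none rose. Around Cbx5, 5, 3 and 7 of 14 rose, and 3, 2 and 2 fell. Around each of the others, some rose and some fell in every line.

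Setdb1, the methyltransferase that TRIM28 recruits, changed less. It had 85.5 and 81.0 CPM in differentiated RlimKO-labelled libraries, against 100.4 and 108 CPM in undifferentiated ones. The WT female line had 60.2 and 67.0 CPM after differentiation, against 120.2 and 107 CPM before. Male cells had 82.0 and 78.4 CPM differentiated, against 114 and 115 CPM undifferentiated. The states did not overlap in any line, and the WT female differentiated libraries were the lowest. The fall passed the test in WT female cells (log2 fold change -0.84 ± 0.15, edgeR adjusted p = 3.1e-04) and male cells (-0.52 ± 0.14, adjusted p = 0.0067). In RlimKO-labelled cells it was -0.33 with adjusted p = 0.083, and it was called in 10 of 21 alternative analyses. The male call was lost in a model of the 2 male groups alone (adjusted p = 0.0558).

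Daxx, which loads histone H3.3 together with ATRX, fell in the female lines. It had 27.6 and 13.7 CPM in differentiated RlimKO-labelled libraries, against 46.1 and 37.9 CPM in undifferentiated ones. The WT female libraries had 18.3 and 22.0 CPM differentiated, against 43.1 and 38.1 CPM undifferentiated. Male cells had 37.7 and 30.8 CPM differentiated, against 38.3 and 37.3 CPM undifferentiated, and there the states overlapped. The log2 fold change was -1.09 ± 0.29 in RlimKO-labelled cells (edgeR adjusted p = 0.0057) and -1.01 ± 0.27 in WT female cells (adjusted p = 0.0067). In male cells it was -0.15 ± 0.25 (adjusted p = 0.64). The RlimKO-labelled call was lost without differentiated RlimKO-labelled library 2 (-0.59, adjusted p = 0.129), and the WT female call without differentiated WT female library 1 (adjusted p = 0.0691). The differences between lines in this change were -0.95 on the log2 scale for RlimKO-labelled minus male and -0.86 for WT female minus male, and neither passed the test (edgeR adjusted p = 0.21 and 0.28), where 2.61% and 1.39% of all genes were called. Both were called without differentiated male library 2 (adjusted p = 0.00623 and 0.0177), and the RlimKO-labelled one without differentiated male library 1 (adjusted p = 0.0259). Without differentiated RlimKO-labelled library 2 the RlimKO-labelled difference was -0.451 (adjusted p = 0.646). Over all alternatives the differences ran from -1.60 to -0.451 for RlimKO-labelled and from -1.07 to -0.73 for WT female minus male, with adjusted p up to 0.646 and 0.593.

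**Figure D2:**
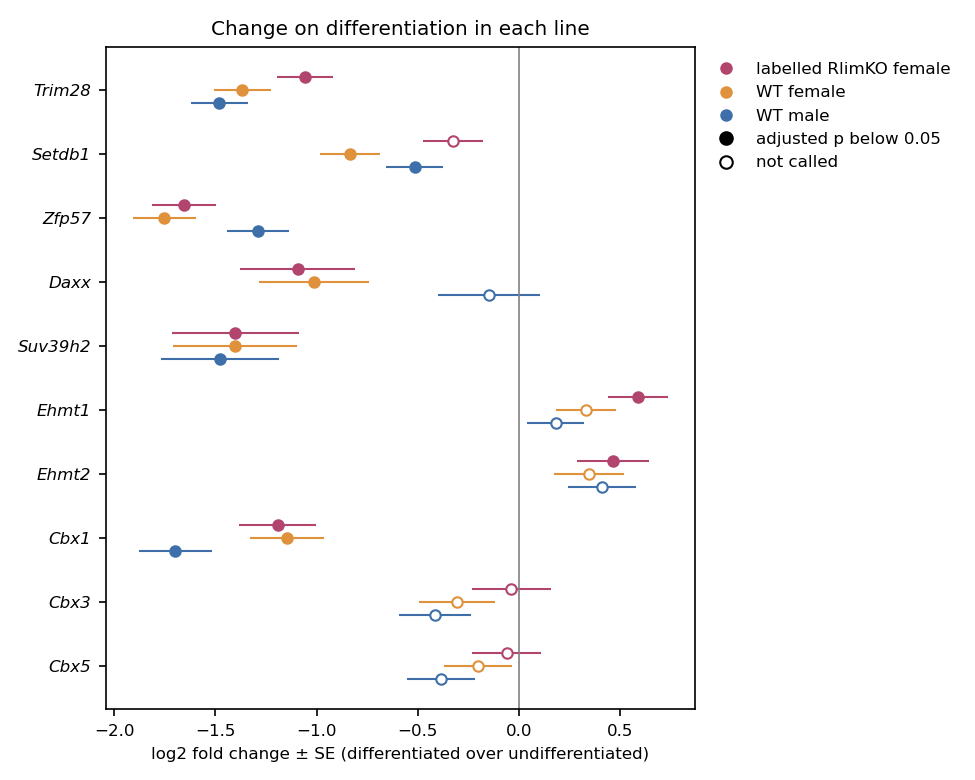
Log2 fold change on differentiation (differentiated over undifferentiated) of each gene in the 3 lines, with bars of 1 SE. Filled points had an edgeR adjusted p below 0.05. Trim28, Zfp57, Suv39h2 and Cbx1 lie at or below -1.06 in each line, and Ehmt1 and Ehmt2 lie right of 0.

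Among the methyltransferases Suv39h2 fell, while Ehmt1 and Ehmt2 had higher means after differentiation. Suv39h2, a constitutive heterochromatin enzyme with the lowest level per length of the 10 genes (4.39 CPM per kilobase), had 11.7 and 11.2 CPM in differentiated RlimKO-labelled libraries, against 36.2 and 24.7 CPM in undifferentiated ones. WT female cells had 9.27 and 11.1 CPM differentiated, against 25.2 and 28.6 CPM undifferentiated. Male cells had 11.9 and 6.98 CPM differentiated, against 22.7 and 28.2 CPM undifferentiated. All 6 differentiated libraries were below all 6 undifferentiated ones. Its log2 fold change was -1.40 ± 0.31 in RlimKO-labelled, -1.40 ± 0.31 in WT female and -1.48 ± 0.29 in male cells, with edgeR adjusted p of 0.0021, 0.0016 and 6.4e-04.

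Suv39h1, the X-linked paralog of Suv39h2, rose where Suv39h2 fell. It had 69.1 and 69.0 CPM in differentiated RlimKO-labelled libraries, against 41.5 and 46.9 CPM in undifferentiated ones. The WT female line had 80.3 and 90.1 CPM differentiated, against 44.1 and 31.5 CPM undifferentiated. Male cells had 111 and 79.1 CPM differentiated, against 20.1 and 17.4 CPM undifferentiated. The log2 fold change was 0.64 ± 0.21 in RlimKO-labelled, 1.18 ± 0.21 in WT female and 2.35 ± 0.22 in male cells, with edgeR adjusted p of 0.022, 3.6e-04 and 5.4e-07. The RlimKO-labelled rise was not followed through the alternative analyses, while the WT female and male rises were called under each. Within each library, Suv39h2 had 8.83 to 16.9 counts per 100 counts of Suv39h1 after differentiation, against 52.7 to 162 before. The balance of the pair therefore differed between states in every line.

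Ehmt1, which encodes GLP, had 108 and 98.5 CPM in differentiated RlimKO-labelled libraries, against 68.3 and 69.1 CPM in undifferentiated ones. The WT female libraries had 85.0 and 84.5 CPM differentiated, against 67.7 and 67.2 CPM undifferentiated. Male cells had 96.0 and 106 CPM differentiated, against 89.9 and 88.6 CPM undifferentiated. The states did not overlap within a line, and the rise passed the test in RlimKO-labelled cells (log2 fold change 0.59 ± 0.15, edgeR adjusted p = 0.0046). In WT female cells the change was 0.33 (adjusted p = 0.076, called in 5 of 21 alternatives) and in male cells 0.18 (adjusted p = 0.29). The RlimKO-labelled call was lost without the count filter (adjusted p = 0.0561) and without undifferentiated RlimKO-labelled library 1 (adjusted p = 0.0732) or library 2 (adjusted p = 0.0889).

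Ehmt2, which encodes G9a, had 108 and 104 CPM in differentiated RlimKO-labelled libraries, against 84.7 and 69.5 CPM in undifferentiated ones. WT female cells had 119 and 109 CPM differentiated, against 81.4 and 98.2 CPM undifferentiated. Male cells had 95.3 and 122 CPM differentiated, against 77.6 and 86.4 CPM undifferentiated. Within each line the differentiated libraries were the higher ones, by 0.46 in RlimKO-labelled, 0.34 in WT female and 0.41 in male cells on the log2 scale. The edgeR adjusted p was 0.043 in RlimKO-labelled, 0.11 in WT female and 0.052 in male cells. The WT female change was called in 5 of 21 alternatives and ran from 0.159 (adjusted p = 0.592), without undifferentiated WT female library 1, to 0.42. The male change was called in 5 of 20 and ran from 0.21 (adjusted p = 0.276), without differentiated RlimKO-labelled library 1 and differentiated male library 2 (the extremes of Rn45s share, a choice made after seeing the data), to 0.63, without differentiated male library 1. The RlimKO-labelled call held in 7 of 21 alternative analyses, was lost without any of the 4 RlimKO-labelled libraries, and the change was 0.19 (adjusted p = 0.551) without undifferentiated RlimKO-labelled library 2. Counts of Setdb1 per 100 counts of Ehmt2 within a library were 50.5 to 86.0 after differentiation, against 109 to 155 before.

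Among the HP1 genes, Cbx1 fell while Cbx3 and Cbx5 did not pass the test. Cbx1 (HP1 beta) had 45.7 and 39.0 CPM in differentiated RlimKO-labelled libraries, against 90.5 and 101.02 CPM in undifferentiated ones. The WT female line had 42.2 and 51.9 CPM differentiated, against 119 and 89.6 CPM undifferentiated. Male cells had 38.3 and 33.9 CPM differentiated, against 118 and 115 CPM undifferentiated. No differentiated library reached any undifferentiated one. Its log2 fold change was -1.19 ± 0.19 in RlimKO-labelled, -1.15 ± 0.18 in WT female and -1.70 ± 0.18 in male cells, with edgeR adjusted p of 1.3e-04, 1.2e-04 and 2.1e-06.

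Cbx5 (HP1 alpha) had 514 and 470.1 CPM in differentiated RlimKO-labelled libraries, against 492 and 534 CPM in undifferentiated ones. The WT female libraries had 449 and 457 CPM differentiated, against 525 and 518 CPM undifferentiated. Male cells had 513 and 351 CPM differentiated, against 527 and 599 CPM undifferentiated. The states overlapped in RlimKO-labelled cells, and the differentiated male libraries were the farthest apart of any group. The log2 fold change was -0.06, -0.20 and -0.39 in RlimKO-labelled, WT female and male cells, with edgeR adjusted p of 0.78, 0.34 and 0.065. The male change rested on which differentiated male library was kept: it was -0.62 and called without library 1 (adjusted p = 1.3e-04), and -0.0768 without library 2 (adjusted p = 0.662). Cbx3 (HP1 gamma) lay between 39.8 and 51.4 CPM in the 6 differentiated libraries, against 46.0 to 65.1 CPM in the 6 undifferentiated ones. Its log2 fold change was -0.04 in RlimKO-labelled, -0.31 in WT female and -0.41 in male cells, with edgeR adjusted p of 0.89, 0.19 and 0.063. Without differentiated male library 1 the Cbx3 fall in male cells was called (-0.41, adjusted p = 0.0468).

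The relative amounts of the 3 HP1 transcripts therefore differed between states. Counts per kilobase of transcript were compared within each library, with the length of the longest protein-coding GENCODE transcript. Cbx1 made up 20.1% to 27.1% of the HP1 sum after differentiation, against 36.6% to 41.8% before. Cbx5 made up 48.7% to 55.9%, against 37.4% to 43.8%. Cbx3 made up 20.2% to 28.5% after differentiation, against 17.4% to 21.7% before, and these ranges overlapped. Counts of Cbx1 per 100 counts of Cbx5, which need no length, were 7.47 to 11.4 after differentiation, against 17.3 to 22.6 before.

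**Figure D3:**
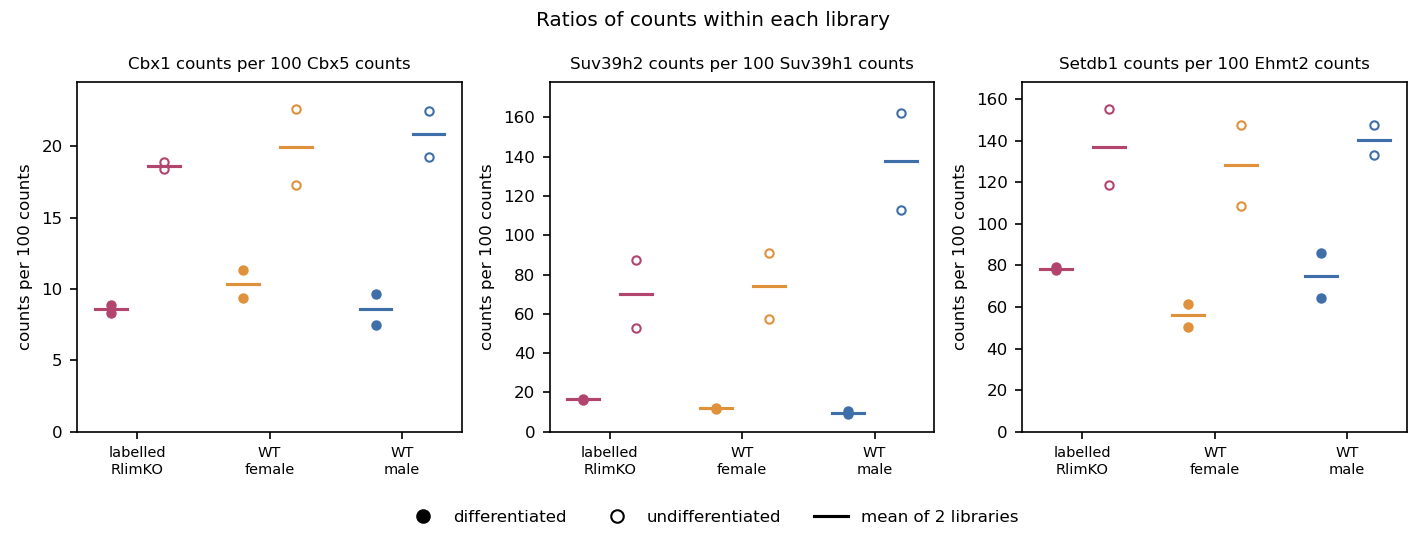
Ratios of counts within each library: Cbx1 per 100 Cbx5, Suv39h2 per 100 Suv39h1 and Setdb1 per 100 Ehmt2, by line, with filled points for differentiated and open points for undifferentiated libraries and a bar at the mean of 2. In each panel all differentiated libraries lie below all undifferentiated ones. Of the ratios not drawn, Zfp57 per 100 Trim28 counts was 15.6 to 24.5 after differentiation, against 15.0 to 35.4 before, and overlapped. Suv39h2 per 100 Ehmt1 counts was 6.59 to 13.2, against 25.2 to 53.0.

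Other markers moved with these falls. The summed CPM of 10 proliferation markers was 1256 to 1697 over the differentiated libraries, against 2746 to 3065 over the undifferentiated ones. Of these 10 markers 8 fell in RlimKO-labelled, 9 in WT female and 7 in male cells. The pluripotency sum, given above, was also lower, and the fibroblast sum higher, in each differentiated library. All 8 pluripotency and all 10 proliferation markers had counts in each group. The part of these markers in the changes of the 10 genes was not tested.

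None of the 10 genes passed the test between RlimKO-labelled and WT female cells in either state. In the differentiated comparison 2.59% of all genes were called and in the undifferentiated one 0.242%. At an unadjusted p below 0.05, 1 of the 10 passed in differentiated cells and none in undifferentiated ones, and DESeq2 called none. The gene nearest the threshold was Setdb1 in differentiated cells, with 85.5 and 81.0 CPM in RlimKO-labelled and 60.2 and 67.0 CPM in WT female libraries. Its log2 fold change was 0.39 with an edgeR adjusted p of 0.21, and in a model of the 2 differentiated female groups alone it was called (0.38, adjusted p = 0.0277). The change on differentiation passed the test of a difference between the 2 female lines for none of the 10, where 0.203% of all genes were called. Without the differentiated male libraries, whose spread enters the shared model, 1616 genes were called between the differentiated female lines, against 332 with them, and still none of the 10.

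Zfp57 differed between the female lines and the male line before differentiation. It had 169.9 and 185 CPM in undifferentiated RlimKO-labelled libraries and 210.0 and 196 CPM in undifferentiated WT female ones, against 123 and 110.2 CPM in undifferentiated male ones. The 4 female libraries were all above the 2 male libraries. Over male cells the log2 fold change was 0.61 ± 0.15 for RlimKO-labelled and 0.80 ± 0.15 for WT female cells, with edgeR adjusted p of 0.021 and 0.0068. These comparisons share the male libraries. Zfp57 was the only 1 of the 10 called in either, where 10.0% of all genes were called for RlimKO-labelled and 6.63% for WT female cells. The RlimKO-labelled call was lost without undifferentiated RlimKO-labelled library 2 (adjusted p = 0.106), undifferentiated male library 1 (adjusted p = 0.0541) or undifferentiated male library 2 (adjusted p = 0.167). The WT female call was lost without undifferentiated WT female library 1 (adjusted p = 0.0526) or undifferentiated male library 2 (adjusted p = 0.0858). On differentiation, the change of Zfp57 in WT female minus male cells was -0.46 on the log2 scale and was not called (edgeR adjusted p = 0.32), but it was called without differentiated male library 2 (-0.68, adjusted p = 0.0323). None of the 8 tested genes within 500000 bases of Zfp57 was called in these comparisons.

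Of the 10 genes, none was called between differentiated female and differentiated male cells, where 11.6% of all genes were called for RlimKO-labelled and 8.97% for WT female cells. At an unadjusted p below 0.05, 1 passed for RlimKO-labelled and 3 for WT female cells, and DESeq2 called none. Daxx was nearest the threshold, with a log2 fold change of -0.80 for RlimKO-labelled (edgeR adjusted p = 0.072) and -0.76 for WT female cells (adjusted p = 0.081) over male cells. Daxx had 13.7 to 27.6 CPM in the 4 differentiated female libraries, against 30.8 and 37.7 CPM in the 2 male ones, without overlap. Without differentiated male library 1, Zfp57, Cbx1 and Cbx5 were called for WT female over male cells and Cbx5 for RlimKO-labelled over male cells. Without the count filter Daxx was called in both comparisons (adjusted p = 0.015 for RlimKO-labelled and 0.033 for WT female cells). It was also called without differentiated male library 1 (adjusted p = 0.0125 and 0.0305), without differentiated male library 2 (adjusted p = 0.0016 and 0.0036), and for RlimKO-labelled without differentiated RlimKO-labelled library 1 (-1.32, adjusted p = 0.0243). Without differentiated RlimKO-labelled library 2 the RlimKO-labelled difference was -0.301 (adjusted p = 0.647). Over all alternatives it ran from -1.46 to -0.301, and that of WT female cells from -0.91 to -0.60 with adjusted p up to 0.406. The fibroblast markers of these male libraries spanned 2011 to 7962 CPM, as given above, and their part in this difference was not tested.

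**Figure D4:**
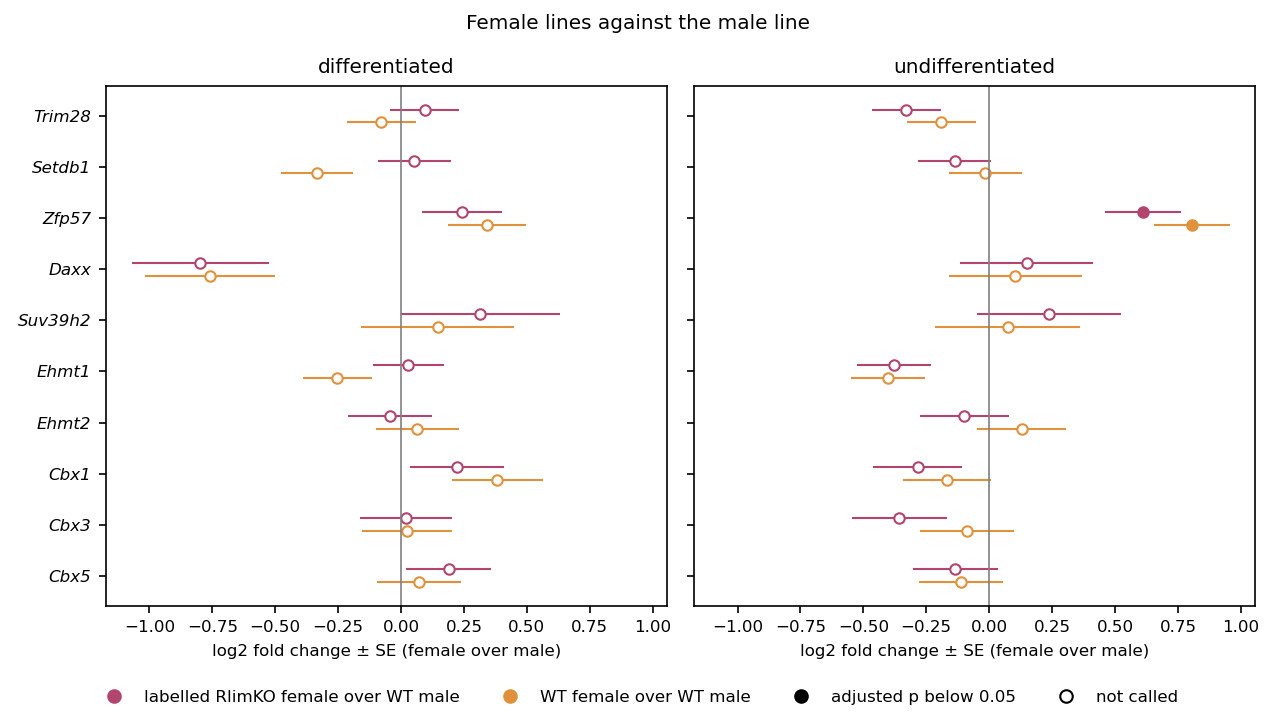
Log2 fold change of female over male cells for each gene, in differentiated and undifferentiated cells, with bars of 1 SE. Filled points had an edgeR adjusted p below 0.05. Zfp57 in undifferentiated cells is the gene with filled points, at 0.61 for RlimKO-labelled and 0.80 for WT female cells, and Daxx lies lowest in differentiated cells at -0.80 and -0.76.

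The order of the groups differed between genes. For Zfp57 it ran from undifferentiated WT female (mean 203 CPM) through undifferentiated RlimKO-labelled (177 CPM) and undifferentiated male (116 CPM) to differentiated WT female (60.2 CPM), differentiated RlimKO-labelled (56.3 CPM) and differentiated male cells (47.8 CPM), and no neighbours in this order overlapped. For Trim28 the undifferentiated male group led at 742 CPM, and undifferentiated WT female and RlimKO-labelled cells, at 650.4 and 591 CPM, overlapped each other. The 3 differentiated groups had Trim28 means of 284 CPM in RlimKO-labelled, 266 CPM in male and 252 CPM in WT female cells, and the first overlapped the second. For Cbx1 the undifferentiated groups lay at 117 CPM in male, 104 CPM in WT female and 95.8 CPM in RlimKO-labelled cells, each overlapping the next. For Ehmt1 the order ran from differentiated RlimKO-labelled cells (103 CPM) to undifferentiated WT female cells (67.5 CPM), with undifferentiated male cells (89.3 CPM) above differentiated WT female cells (84.8 CPM).

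Across the 12 libraries correlations describe libraries that fall into 2 states. Log2 CPM of Trim28 and Cbx1 had a Pearson r of 0.95, and of Zfp57 and Suv39h2 0.92. Zfp57 and Ehmt1 had an r of -0.89. Among 7786 genes with a mean of at least 10 CPM, the closest to Trim28 were the nuclear pore gene Nup210 (r = 0.997), the tRNA synthetase gene Iars (r = 0.994) and the Polycomb gene Phc1 (r = 0.993). The closest to Zfp57 were Mrps2 (r = 0.993), Rpl10l (r = 0.990) and Rnf125 (r = 0.988). The closest to Cbx1 was Psip1 (r = 0.986) and to Suv39h2 Isg20l2 (r = 0.976). For Cbx3 the closest was Chn1 at an r of 0.905.

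Of 59 other pathway genes on 7 lists, 55 were tested. Of these, 12 rose and 23 fell in RlimKO-labelled, 13 rose and 24 fell in WT female, and 9 rose and 28 fell in male cells. Their median log2 fold change was -0.38 in RlimKO-labelled, -0.42 in WT female and -0.59 in male cells, beside the medians over all genes given above. Over all genes, 21.6% to 25.4% were called lower and 26.4% to 28.7% higher in the 3 lines. Of the 10 HP1 partners and heterochromatin factors, 6 fell in RlimKO-labelled, 8 in WT female and 8 in male cells, and 1 rose in each. Hells, a chromatin remodeller needed for DNA methylation, had a log2 fold change of -1.998 in RlimKO-labelled, -2.13 in WT female and -2.73 in male cells. Uhrf1, which brings DNA methyltransferase to replicated DNA, had -1.21, -1.65 and -2.11 in the same lines, all called by edgeR. Adnp, a zinc finger protein that binds HP1, was the gene that rose: its level was 156 to 200.4 CPM over the differentiated libraries, against 82.5 to 149.7 CPM over the undifferentiated ones.

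The other lists were mixed, and their counts stand beside the same shares over all genes. Of 8 other H3K9 methyltransferases and partners, 2 rose and 3 fell in each line. Cdyl2, a chromodomain protein, had 5.36 to 15.9 CPM over the differentiated libraries, against 81.7 to 110.4 CPM over the undifferentiated ones. Zfp644, a zinc finger partner of the G9a and GLP complex, rose by 1.70 in RlimKO-labelled, 1.16 in WT female and 1.40 in male cells on the log2 scale. The HUSH complex list covers a silencing complex that works with SETDB1 and holds 2810474O19Rik, which is not a subunit of that complex. Of its 5 genes, 3 fell in RlimKO-labelled, 3 in WT female and 4 in male cells, and 1 rose, in WT female cells. 2810474O19Rik was among those that fell in each line. Mphosph8, the chromodomain subunit of the complex, had 35.8 to 45.5 CPM over the differentiated libraries, against 67.1 to 104 CPM over the undifferentiated ones. Of 10 tested H3K9 demethylase genes, 4 fell in RlimKO-labelled, 4 in WT female and 6 in male cells, and 2, 2 and 1 rose. Phf2 rose, with 33.4 to 50.6 CPM over the differentiated libraries, against 7.15 to 16.3 CPM over the undifferentiated ones, and Kdm4c fell by 1.06 in RlimKO-labelled, 0.995 in WT female and 1.22 in male cells on the log2 scale.

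Other lists hold genes that work beside DAXX and ZFP57. Of the 4 genes for H3.3, ATRX and MORC3, 2 fell in each line and none rose. Morc3 had a log2 fold change of -0.70 in RlimKO-labelled, -0.86 in WT female and -1.23 in male cells. Of 7 KRAB zinc finger and TRIM genes, 1 rose and 1 fell in RlimKO-labelled and WT female cells and 2 fell in male cells. Trim24, a relative of Trim28, fell by 1.24 in RlimKO-labelled, 0.50 in WT female and 0.56 in male cells on the log2 scale. Its WT female call was lost without undifferentiated WT female library 1 or differentiated WT female library 1 (adjusted p up to 0.225), and its male call in a model of the male groups alone (adjusted p = 0.0515).

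Of 14 genes reported as targets of this system 11 were tested, and they moved in both directions. In RlimKO-labelled cells 6 rose and 4 fell, in WT female cells 6 rose and 3 fell, and in male cells 5 rose and 3 fell. The imprinted gene Peg3, whose control region ZFP57 protects, had 2847 and 3110.1 CPM in differentiated RlimKO-labelled libraries, against 72.4 and 98.5 CPM in undifferentiated ones. It had 2914 and 2683 CPM in differentiated WT female libraries, against 98.7 and 88.7 CPM in undifferentiated ones, and 2382 and 1036 CPM in differentiated male libraries, against 88.0 and 69.9 CPM in undifferentiated ones. Mest, another imprinted gene, rose by 2.86 in RlimKO-labelled, 3.31 in WT female and 3.94 in male cells on the log2 scale. The germline gene Mael had 0 to 6 counts in a differentiated library, against 9 to 26 in an undifferentiated one. The allele of origin of imprinted transcripts was not measured.

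**Figure D5:**
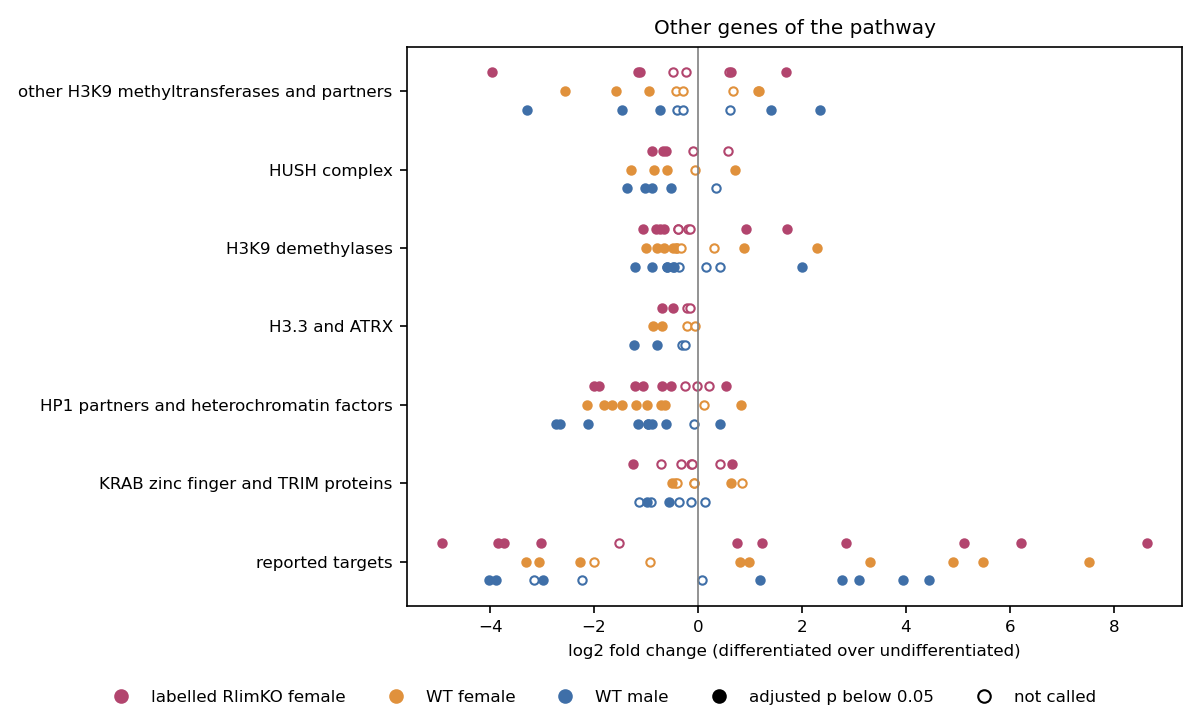
Log2 fold change on differentiation of the 55 tested pathway genes, by list and line, with filled points for genes with an edgeR adjusted p below 0.05. Most points of the HP1 partner list lie left of 0, and the reported targets spread to both sides.

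Between RlimKO-labelled and WT female cells Cdyl2 was the pathway gene called in differentiated cells, and none was called in undifferentiated cells. It had 7.44 and 5.36 CPM in differentiated RlimKO-labelled libraries, against 14.6 and 15.9 CPM in differentiated WT female ones, with a log2 fold change of -1.31 ± 0.26 (edgeR adjusted p = 0.015). The call was lost without either library of either group (adjusted p up to 0.365). Between female and male cells pathway genes were called both ways, beside 6.63% to 11.6% of all genes. Jmjd1c and Pogz were lower in both undifferentiated female lines. Kcnq1ot1, a reported target, was higher by 1.19 in RlimKO-labelled and 0.96 in WT female undifferentiated cells, and by 1.86 and 1.87 in differentiated ones. Mest was higher in both undifferentiated lines, and Hells, Plagl1 and Nnat in both differentiated ones. Most of these calls were lost under some alternative. Suv39h1 was higher in undifferentiated female than in undifferentiated male cells, by 1.25 ± 0.23 in RlimKO-labelled and 1.02 ± 0.23 in WT female cells on the log2 scale (edgeR adjusted p = 0.0039 and 0.019). The RlimKO-labelled call was lost without undifferentiated male library 2 (adjusted p = 0.0572), and the WT female call when undifferentiated WT female library 1 or one of the undifferentiated male libraries was left out (adjusted p up to 0.165). Kdm3a, an H3K9 demethylase gene, was higher in differentiated female than in differentiated male cells, by 0.77 ± 0.17 for RlimKO-labelled and 1.16 ± 0.16 for WT female cells (edgeR adjusted p = 0.0096 and 8.9e-04). Both calls were lost in a model of only the groups compared, and the RlimKO-labelled call also without differentiated RlimKO-labelled library 2 (adjusted p up to 0.147 for RlimKO-labelled and 0.117 for WT female cells).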

How the data were processed

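RNA was measured in 12 libraries. Per the labels' protocols, RNA was reverse-transcribed with template switching, amplified, tagmented and amplified again, and no molecular identifiers or strand marking were described. HTSeq (0.6.1p1), TopHat2 (2.0.12), edgeR (3.10.0), bcl2fastq (2.16.0.10) and the build mm10 are named in the submitters' processing notes. The annotation and strand setting are not given in the sources used here. The authors deposited raw read counts per gene, with 5 summary lines that name no gene. Those lines were set aside, and 1 of them, reads assigned to no feature, held 45.4% to 53.3% of all counts. Without the annotation and strand setting, it cannot be told how many of these reads lay within genes, in introns or on the opposite strand.

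Counts were fitted with edgeR 4.0.16 in R 4.3.3: 1 model of all libraries with 6 group means, TMM scaling, the default expression filter, quasi-likelihood tests and Benjamini-Hochberg adjustment over 12814 genes. SE was derived from the test statistic. CPM are counts scaled to the TMM-adjusted library size. With 2 libraries per group the smallest exact permutation p is 0.33. Amplification duplicates could not be removed, so counting precision cannot be judged from counts alone. Alternatives were RLE factors, TMM without Rn45s and Lars2, no filter, a stricter filter, DESeq2 1.42.0, a replicate block, models of only the groups compared, leaving out each library, and leaving out the differentiated male pair. An alternative without the libraries of highest and lowest Rn45s share (differentiated RlimKO-labelled library 1 and male library 2) was added after the data were seen. The fitting code was checked on simulated counts.

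Coordinates, synonyms and promoters are from RefSeq GRCm38.p6 (the same primary assembly as mm10), and all 10 genes matched. Transcript lengths and exon overlaps are from GENCODE. Fam208a is listed as D14Abb1e. From each pathway list the rule named up to 3 genes per comparison with the smallest p, and for each of the 10 genes the 3 with the highest r. Mael, and some list genes in comparisons for which the rule did not pick them, were named after their values were seen. The 10 genes, lists and tests were chosen with earlier results of these data known.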

Additional observations from a re-analysis of the deposited data

Results flagged for a closer look

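Among the pathway genes, 3 differences between lines in the change on differentiation passed the test of the difference itself. Suv39h1 changed by 0.64 in RlimKO-labelled and by 2.35 in male cells, a difference of -1.707 on the log2 scale (edgeR adjusted p = 0.011). It was no longer called without undifferentiated RlimKO-labelled library 2, differentiated RlimKO-labelled library 2 or undifferentiated male library 2 (adjusted p up to 0.0773). The imprinted gene Plagl1 changed by 8.63 in RlimKO-labelled, 7.53 in WT female and 3.097 in male cells. The difference from male cells was 5.537 for RlimKO-labelled (edgeR adjusted p = 0.012) and 4.431 for WT female cells (adjusted p = 0.030). Plagl1 had 1302 and 1261 CPM in differentiated RlimKO-labelled and 1176 and 1042 CPM in differentiated WT female libraries, against 71.4 and 20.8 CPM in differentiated male ones. The Plagl1 difference was called in 16 of its alternatives for RlimKO-labelled and in 9 for WT female cells, with adjusted p up to 0.126 and 0.257. These comparisons share the male libraries. None of the 10 genes was called in such a test.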

How the results depend on the processing

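The falls of Trim28, Zfp57, Suv39h2 and Cbx1 in each line were called under every alternative run, with log2 fold changes of -1.55 to -0.98 for Trim28, -1.87 to -1.07 for Zfp57, -1.82 to -1.05 for Suv39h2 and -1.72 to -0.99 for Cbx1 over the 3 lines. Leaving out 1 library at a time, the number of the 10 genes called in male differentiation was 5 to 8. It was 0 to 1 for undifferentiated WT female over male, 0 to 4 for differentiated WT female over male, 0 to 1 for undifferentiated RlimKO-labelled over male and 0 to 2 for differentiated RlimKO-labelled over male. For the difference in change it was 0 to 2 (WT female minus male) and 0 to 1 (RlimKO-labelled minus male). The numbers called on differentiation in both female lines also moved when 1 library was left out. In a model of only the groups compared, 8 were called in WT female, 8 in RlimKO-labelled and 4 in male differentiation. That kind of model called 1 between differentiated RlimKO-labelled and WT female cells. Without the filter, 1 was called for differentiated WT female and 1 for differentiated RlimKO-labelled over male. Without the libraries of extreme Rn45s share, 2 were called for undifferentiated WT female over male, 1 for differentiated WT female, 2 for undifferentiated RlimKO-labelled and 1 for differentiated RlimKO-labelled over male, and 1 for each difference in change from male cells. The sign turned for Cbx3 in RlimKO-labelled differentiation (-0.25 to 0.12 leaving out 1 library, 0.13 without the extreme Rn45s libraries) and Cbx5 there (-0.23 to 0.00755). It also turned for Daxx in male differentiation (-0.23 to 0.0576), Cbx5 in differentiated WT female over male (-0.17 to 0.39, and -0.18 without the extreme libraries) and Cbx5 in differentiated RlimKO-labelled over male (-0.0912 to 0.46, and -0.12). In each of these the causes were not tested, and the main values were not called. Of 76 further values between lines that were called under no alternative, 34 changed sign in some.

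Replicate numbers did not pair the libraries: of 15 pairs of groups 1 had a correlation of deviations over 0.1 (-0.066 to 0.103). With the replicate block the same genes of the 10 were called in each comparison (6 in WT female, 7 in RlimKO-labelled and 5 in male differentiation). The block moved the count over all genes to 6246, 6146 and 6914. Counts over all genes between lines moved by more than 1.5 times: in a model of only the groups compared they were 2154 for differentiated RlimKO-labelled over WT female (main 332), 303 for undifferentiated RlimKO-labelled over WT female (main 31), 2016 and 2383 for undifferentiated WT female and RlimKO-labelled over male (main 849 and 1282), and 5 and 10 for differentiated WT female and RlimKO-labelled over male (main 1149 and 1489). For the differences in change they were 530 (RlimKO-labelled minus WT female, main 26), 23 (WT female minus male, main 178) and 39 (RlimKO-labelled minus male, main 334). Leaving out 1 library, the count was 12 to 1680 between the differentiated and 0 to 413 between the undifferentiated female lines. Without differentiated male library 1, 4391 and 4530 genes were called for differentiated WT female and RlimKO-labelled over male. The median of all genes moved by -0.108 in RlimKO-labelled differentiation when scaling left out Rn45s and Lars2. Of 90 values of pathway genes picked by the naming rule, 50 were called under every alternative and none changed sign.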
